A study of Homo sapiens with 6 samples.

Results

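The 10 genes described here encode parts of the transforming growth factor beta (TGF-beta) pathway and were taken by gene symbol from the 17631 genes in the files: the ligand genes TGFB1, TGFB2 and INHBA, the receptor genes TGFBR1 and TGFBR2, the signal carrier SMAD3, the inhibitors SMAD6, SMAD7 and SKIL, and the target gene TGFBI. RNA-seq was performed on MDA-MB-231, a human cell line from a triple-negative breast cancer with a mesenchymal appearance, in 3 libraries of cells treated with vehicle and 3 libraries of cells treated with 30 µM PDBAG1 for 24 h. PDBAG1 is a synthetic peptide that joins a cell-penetrating sequence to a stretch of the GPD1 protein, and for cell experiments it was dissolved in distilled water. All libraries came from this single line, although the labels also call the source a breast cancer tissue. The labels do not say whether the replicates were separate cultures, so the p values measure only the spread between these libraries, which may be technical.

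TGF-beta ligands are secreted in a latent form and, once released, bind the type II receptor TGFBR2, which recruits and phosphorylates the type I receptor TGFBR1. TGFBR1 then phosphorylates SMAD2 and SMAD3, which enter the nucleus with SMAD4 and change transcription. SMAD6 and SMAD7 are inhibitory SMADs and SKIL (SnoN) is a nuclear repressor of SMAD complexes; SMAD7 and SKIL are themselves induced by the pathway and so act as feedback brakes, whereas SMAD6 is better known as a brake on the related bone morphogenetic protein (BMP) branch. In breast cancer the pathway is known both for arresting growth of epithelial cells and for promoting invasion of mesenchymal ones.

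The promoters of the ligand pair and of the inhibitory SMAD pair are shown because the genes of each pair differed from vehicle in opposite directions. The stretches are the 120 bases just before the transcript start, written 5′ to 3′ on the gene's strand (RefSeq, GRCh38.p14), and capitals mark GTCTAGAC, the palindromic SMAD-binding sequence, and TATAAA, the TATA box.
TGFB1, chr19:41353923-41354042, minus strand: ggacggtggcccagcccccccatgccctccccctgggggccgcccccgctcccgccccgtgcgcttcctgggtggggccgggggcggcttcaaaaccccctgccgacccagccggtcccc
TGFB2, chr1:218345216-218345335, plus strand: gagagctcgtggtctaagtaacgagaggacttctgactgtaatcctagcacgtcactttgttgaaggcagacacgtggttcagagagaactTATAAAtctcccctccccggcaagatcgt
SMAD6, chr15:66702116-66702235, plus strand: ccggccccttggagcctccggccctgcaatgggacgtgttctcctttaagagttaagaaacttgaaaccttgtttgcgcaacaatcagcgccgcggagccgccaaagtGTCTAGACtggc
SMAD7, chr18:48950966-48951085, minus strand: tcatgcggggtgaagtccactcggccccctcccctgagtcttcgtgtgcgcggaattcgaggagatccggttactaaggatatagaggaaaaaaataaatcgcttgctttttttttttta

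Motifs were searched on both strands in the 250 bases before the start, a window that could be matched for all 10 genes and for 10243 of the genes tested. G and C made up 76.8% of the TGFB1 window and 50.4% of the TGFB2 window, with a median of 65.6% over all windows. TATAAA was found in TGFB2, beginning at position -29 from the start, and in INHBA at -11, and 5.06% of all windows held it. The SMAD palindrome was found in the window of SMAD6 alone of the 10 genes, at -12, and in 0.146% of all windows. CAGAC, the short SMAD-binding sequence, or its complement GTCTG was found in TGFB2, TGFBR1, SMAD7 and SKIL and in 35.3% of all windows; it does not overlap the palindrome. These matches are letters in a window and not measured binding. Sites further upstream, after the start or near other starts of a gene were not searched.

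TGFB1 RNA was higher and TGFB2 RNA lower after PDBAG1, both receptors and SMAD3 were higher, and the inhibitors split, with SMAD7 and SKIL higher and SMAD6 lower. Values are TPM, a level per transcript length that the authors set to a common sum per library, so a change is relative to all other RNA. TPM keeps no record of sequencing depth, and the depth is therefore unknown. On the log2(TPM + 1) scale, which understates changes of low genes, limma was applied to the 12582 genes that reached 1 TPM in at least 3 libraries. With a Benjamini-Hochberg adjusted p under 0.05 over these genes, 8 of the 10 genes were higher and 2 were lower. Of all genes tested 37.6% passed, 21.7% higher and 15.9% lower. Under other scalings the split of all passing genes shifted: 57.8% of them were higher as reported, 47.2% after median-of-ratios scaling, 46.7% after quantile normalization and 43.9% after removal of trends with transcript length and GC content, the last setting having been chosen after the data were seen. The directions and calls of the 10 genes held under each of these scalings. In all 10 genes the 3 vehicle and the 3 PDBAG1 values did not overlap, as in 47.4% of all genes tested, 27.2% with the PDBAG1 libraries higher and 20.2% with them lower. The median log2 fold change of the 10 genes was 0.35, against 0.03 over all genes tested. Because the 10 genes were chosen with earlier results of these data known, these contrasts with all genes are not a test of the pathway. On this scale TGFB1 alone also passed the 1.5-fold limit, which 3.34% of all genes tested passed together with the p limit, 2.86% higher and 0.477% lower. As plain ratios of mean TPM, TGFBR1 (1.52) and SMAD7 (1.51) exceeded 1.5 as well.

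**Figure D1:**
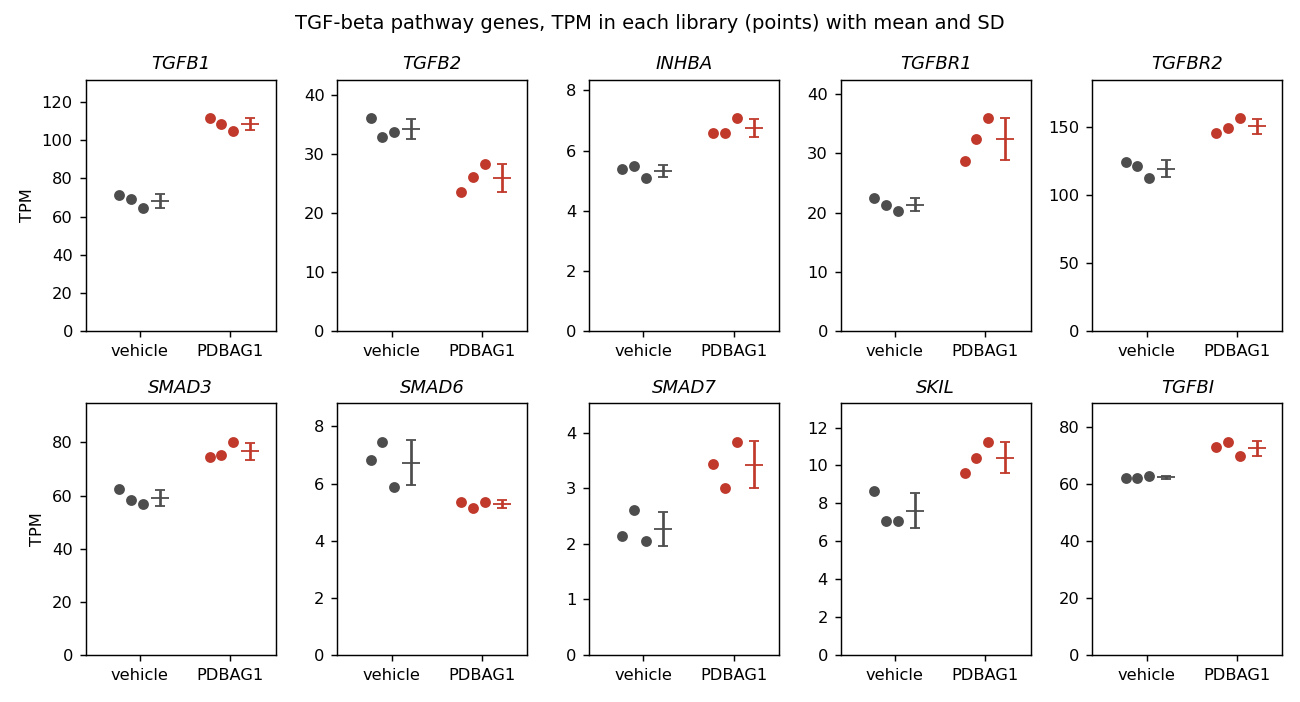
TPM (vertical axis, from 0) of each of the 10 genes in the 3 vehicle libraries (grey) and the 3 PDBAG1 libraries (red), with the mean and SD of each group beside the points. The PDBAG1 points lie above the vehicle points in 8 genes and below them in TGFB2 and SMAD6.

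TGFB1 encodes the TGF-beta ligand made by most cell types (gene ID 7040, chr19:41301587-41353922, GRCh38, GENCODE v44). Its level was 71.1, 69.0 and 64.4 TPM in the vehicle libraries and 112, 109 and 105 TPM in the PDBAG1 libraries. Every PDBAG1 library was above every vehicle library, and the gap was several times the spread within a group. The mean rose from 68.1 ± 3.42 to 108 ± 3.30 TPM (SD, n = 3 each), which is 59.0% higher on the TPM scale. The log2 fold change was 0.66 (SE 0.05, 95% interval 0.56 to 0.77, adjusted p = 2.95e-07 by limma). The change fell below 1.5-fold, to a log2 value of 0.52, when trends with transcript length and GC content were removed, and stayed past the p limit.

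TGFB2 encodes a second TGF-beta ligand (gene ID 7042, chr1:218345336-218444619), which needs the co-receptor betaglycan for strong binding to TGFBR2. It was at 36.1, 32.9 and 33.8 TPM in vehicle-treated and at 23.6, 26.1 and 28.3 TPM in PDBAG1-treated cells. The highest PDBAG1 library, replicate 3, lay below the lowest vehicle library. The mean fell by 24.2%, from 34.3 ± 1.67 to 26.0 ± 2.37 TPM (SD over 3 libraries each). The log2 fold change was -0.39 (SE 0.07, adjusted p = 0.000677 by limma). Within the ligand pair shown above, the TGFB2 promoter holds the TATA box and has the lower GC content. The window of INHBA, a ligand gene that was higher with PDBAG1, also holds TATAAA and has a GC content of 42.8%. The third ligand of this subfamily, TGFB3, was at 1.63 ± 0.0862 TPM in vehicle-treated and 1.46 ± 0.163 TPM in PDBAG1-treated cells (SD, n = 3 each), a log2 difference of -0.09 that did not pass the test (adjusted p = 0.536 by limma).

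The make-up of the TGF-beta ligand RNA can be given within each library, where scaling between libraries has no part. TGFB2 made up 33.2%, 31.8% and 33.9% of the summed TGFB1, TGFB2 and TGFB3 TPM in the vehicle libraries and 17.3%, 19.1% and 21.0% in the PDBAG1 libraries. The groups did not overlap, and the mean share differed by -13.8 percentage points, from 32.9% ± 1.09 to 19.1% ± 1.86 (SD, n = 3 each). The two-sided exact permutation p was 0.1, the smallest that 3 against 3 libraries can give, and it was also 0.1 adjusted over the 4 ratios compared in this way. The two-sided exact tests of the other ratios gave the same p.

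INHBA encodes the activin A subunit (gene ID 3624, chr7:41667168-41705834), a ligand that signals through other receptors to the same SMAD2 and SMAD3. The level was low, at 5.39, 5.48 and 5.08 TPM in vehicle-treated and at 6.57, 6.59 and 7.08 TPM in PDBAG1-treated cells. The 3 PDBAG1 libraries were all above the vehicle libraries by about 1 TPM or more. The log2 fold change was 0.29 (SE 0.08, adjusted p = 0.0137 by limma). This call was lost without vehicle replicate 3, the lowest library, where the log2 fold change was 0.27 and the limma adjusted p was 0.0632. It was close to the limit without PDBAG1 replicate 3 as well (0.26, adjusted p = 0.0471 by limma). Quantile normalization lowered the log2 fold change to 0.19, still past the p limit.

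Both TGF-beta receptor genes rose. TGFBR1, the kinase that phosphorylates the SMADs (gene ID 7046, chr9:99104038-99154192), was at 22.4, 21.3 and 20.2 TPM in the vehicle libraries and 28.8, 32.5 and 36.0 TPM in the PDBAG1 libraries. The PDBAG1 libraries were all higher but also more spread, with an SD of 3.59 TPM around a mean of 32.4 TPM. The log2 fold change was 0.58 (SE 0.08, 95% interval 0.41 to 0.74, adjusted p = 6.26e-05 by limma), just under the 1.5-fold limit, which it passed with a pseudocount of 0.1 (0.60) and without vehicle replicate 1 (0.61) or PDBAG1 replicate 1 (0.66). TGFBR2, the ligand-binding receptor (gene ID 7048, chr3:30606601-30694142), was the most abundant of the 10 genes per transcript length, at 124, 121 and 112 TPM in vehicle-treated and at 145, 149 and 156 TPM in PDBAG1-treated cells. Every PDBAG1 library was again above every vehicle library. The mean was 26.0% higher with PDBAG1, with a log2 fold change of 0.33 (SE 0.05, adjusted p = 0.00013 by limma). The log2 ratio of TGFBR1 to TGFBR2 within a library was -2.47, -2.51 and -2.47 with vehicle and -2.33, -2.20 and -2.12 with PDBAG1. The groups of this ratio did not overlap, and it differed by 0.26 (two-sided exact permutation p = 0.1, the smallest possible here), so that TGFBR1 gained on TGFBR2 in each PDBAG1 library.

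SMAD3, the receptor-activated SMAD that binds DNA directly (gene ID 4088, chr15:67063763-67195173), was at 62.5, 58.3 and 56.6 TPM in vehicle-treated and at 74.4, 75.2 and 80.3 TPM in PDBAG1-treated cells. All PDBAG1 libraries were higher, and the mean rose by 29.6%. The log2 fold change was 0.37 (SE 0.05, adjusted p = 0.000111 by limma). SMAD2, its close relative, was at 10.3 ± 0.273 and 11.03 ± 0.996 TPM (SD, n = 3 each), with overlapping groups and a log2 difference of 0.09 (adjusted p = 0.428 by limma), which turned to -0.014 with the length and GC trends removed. SMAD3 accordingly made up 85.5%, 85.1% and 84.9% of the summed SMAD2 and SMAD3 TPM with vehicle and 88.1%, 87.2% and 87.0% with PDBAG1. This share did not overlap between groups and differed by 2.28 percentage points (two-sided exact permutation p = 0.1, the smallest possible here).

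**Figure D2:**
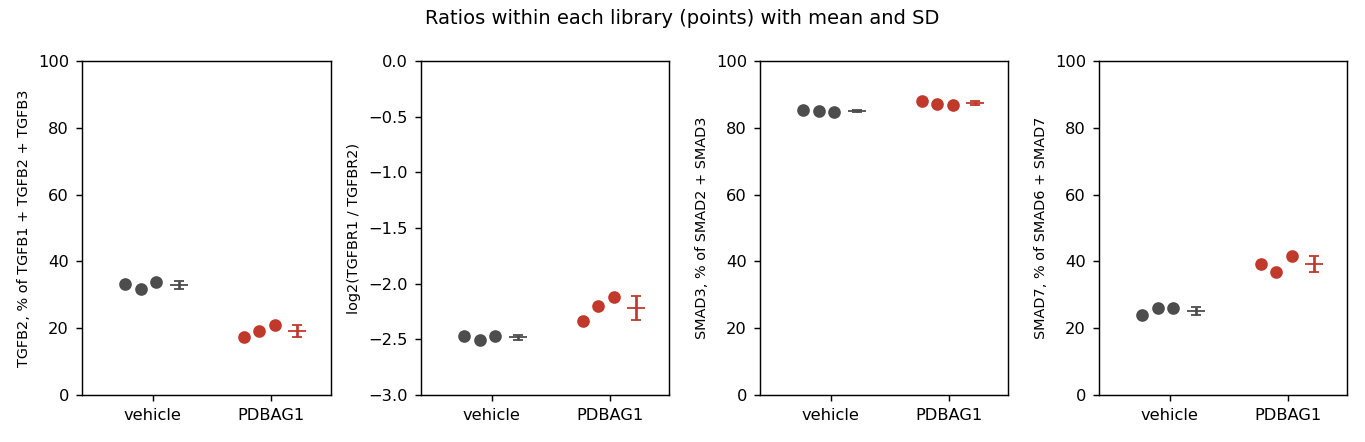
The 4 ratios within each library (points; grey vehicle, red PDBAG1) with mean and SD: 3 panels give percentages of summed TPM on an axis from 0 to 100, and 1 gives log2(TGFBR1/TGFBR2). The groups do not overlap in any panel. Of the 3 percentages the SMAD3 share moves least, by 2.28 percentage points, which cannot be ranked against the log2 ratio.

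The inhibitory SMADs moved apart. SMAD7, which recruits ubiquitin ligases to TGFBR1 (gene ID 4092, chr18:48919853-48950965), was the least abundant of the 10 genes, at 2.14, 2.62 and 2.06 TPM in vehicle-treated and at 3.44, 3.00 and 3.84 TPM in PDBAG1-treated cells. No vehicle library reached the lowest PDBAG1 library, although the gap of the nearest pair was small. The mean was 50.7% higher with PDBAG1, and the log2 fold change was 0.44 (SE 0.11, 95% interval 0.19 to 0.68, adjusted p = 0.00785 by limma). SMAD6 (gene ID 4091, chr15:66702236-66782849), the gene with the SMAD palindrome shown above, was at 6.83, 7.46 and 5.89 TPM in vehicle-treated and at 5.35, 5.13 and 5.37 TPM in PDBAG1-treated cells. The PDBAG1 libraries lay close together, just below vehicle replicate 3, and the vehicle libraries were widely spread. The mean fell by 21.5%, with a log2 fold change of -0.29 (SE 0.09, 95% interval -0.50 to -0.09, adjusted p = 0.025 by limma). The SMAD6 call was the least firm of the 10: the limma adjusted p was 0.0529 without vehicle replicate 1, 0.12 without vehicle replicate 2 and 0.0833 without PDBAG1 replicate 2, 0.0639 with no filter on low values and 0.0516 with the replicate number as a block.

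SMAD7 made up 23.9%, 26.0% and 25.9% of the summed SMAD6 and SMAD7 TPM with vehicle and 39.1%, 36.9% and 41.7% with PDBAG1. The groups did not overlap, and the share differed by 14.0 percentage points, from 25.3% ± 1.21 to 39.2% ± 2.40 (SD, n = 3 each; two-sided exact permutation p = 0.1, the smallest possible here). SMAD6 thus remained the more abundant inhibitory SMAD per transcript length in all 6 libraries. SMAD6 and SMAD3 are neighbours on chromosome 15: 280914 bases lie between the end of SMAD6 and the start of SMAD3, with 0 other protein-coding genes of GENCODE v44 lying wholly between them, and the neighbours differed from vehicle in opposite directions.

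SKIL, whose protein SnoN represses SMAD target genes until it is degraded (gene ID 6498, chr3:170357342-170396835), was at 8.67, 7.06 and 7.07 TPM in vehicle-treated and at 9.58, 10.4 and 11.3 TPM in PDBAG1-treated cells. Vehicle replicate 1 stood above the other vehicle libraries and came within 1 TPM of PDBAG1 replicate 1. The log2 fold change was 0.41 (SE 0.09, adjusted p = 0.00362 by limma). TGFBI, an extracellular matrix protein gene named for its induction by TGF-beta (gene ID 7045, chr5:136028988-136063818), was at 61.8, 61.9 and 62.8 TPM in vehicle-treated and at 72.8, 74.7 and 69.6 TPM in PDBAG1-treated cells. The vehicle libraries agreed within 1 TPM and all PDBAG1 libraries were higher. TGFBI had the smallest change of the 10, 16.3% on the TPM scale, with a log2 fold change of 0.21 (SE 0.05, adjusted p = 0.00277 by limma).

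**Figure D3:**
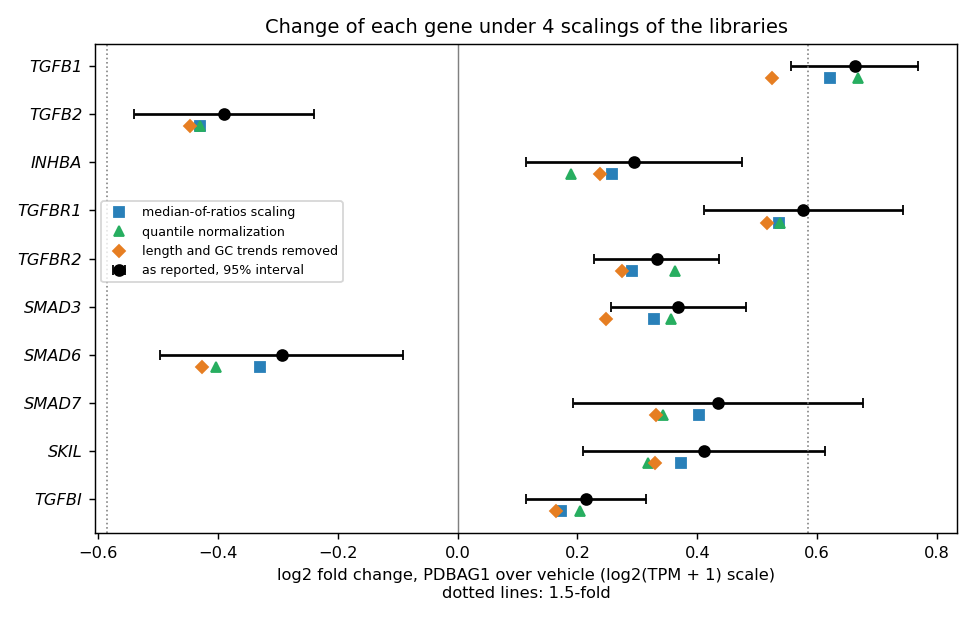
Log2 fold change of PDBAG1 over vehicle on the log2(TPM + 1) scale for each gene (black, with its 95% limma interval) and the same value under 3 other scalings (coloured symbols below it); dotted lines mark 1.5-fold. Each gene keeps its direction under all scalings shown, and TGFB1 drops from 0.66 to 0.52 with the length and GC trends removed.

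Per transcript length, the order of the vehicle means was TGFBR2, TGFB1, TGFBI, SMAD3, TGFB2, TGFBR1, SKIL, SMAD6, INHBA and SMAD7. Neighbours in this order whose libraries overlapped were TGFBI with SMAD3 and SKIL with SMAD6. In the PDBAG1 libraries the order was TGFBR2, TGFB1, SMAD3, TGFBI, TGFBR1, TGFB2, SKIL, INHBA, SMAD6 and SMAD7, with only SMAD3 and TGFBI overlapping. The neighbours that had thus changed places were TGFB2 with TGFBR1, SMAD6 with INHBA, and the overlapping pair TGFBI with SMAD3.

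PDBAG1 replicate 3 was the highest PDBAG1 library in 8 of the 10 genes and PDBAG1 replicate 1 the lowest in 6, while vehicle replicate 3 was the lowest vehicle library in 7. The transcripts of the 10 genes are long, with a median canonical length of 5199 bases against 3280 over the genes tested, and length moved with treatment over all genes: the median log2 fold change was 0.09 for transcripts over 5157 bases and -0.04 for those under 2012 bases. With the trends for length and GC content removed, the median of the 10 genes was 0.26 in place of 0.35, and 8 were still higher and 2 lower at the p limit.

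The genes with the profile most like those of TGFB1 and TGFBR1, the members with the largest changes, were sought by Pearson's r of log2(TPM + 1) over the 6 libraries. For TGFB1 they were LAPTM5 (r = 0.9995), CYTH2 (0.9989) and PFKL (0.9985), and for TGFBR1 they were PACSIN2 (0.9993), HTT (0.9987) and WASL (0.9975). These r values are carried mostly by the difference between treatments that the libraries share, and 1085 genes had r above 0.95 with TGFB1 and 1038 with TGFBR1.

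The other genes of the superfamily pathway were read from 8 lists with 117 genes, of which 86 could be tested. These lists too were chosen with earlier results of these data known. At the same p limit, 34 were higher and 10 lower, a share of calls to be read against 21.7% and 15.9% over all genes tested. The same holds for the counts of each list below. The median log2 fold change was 0.15, against 0.03 over all genes, and it was 0.086 after quantile normalization and 0.083 with length and GC trends removed, against -0.020 and -0.018 over all genes.

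Among the genes that hold ligands in latent form or release them, all 9 that could be tested passed, 8 higher and 1 lower. Over all genes tested 37.6% passed, 21.7% higher and 15.9% lower. The median log2 fold change of the 9 was 0.37, against 0.03 over all genes tested. With length and GC trends removed 7 passed, 6 higher and 1 lower, and the median was 0.19. LTBP1, a latent TGF-beta binding protein, rose from 6.40 ± 0.256 to 13.7 ± 0.969 TPM (SD over 3 libraries each; log2 fold change 0.99, adjusted p = 6.21e-07 by limma). LTBP3, of the same family, rose from 6.45 ± 0.365 to 11.4 ± 0.638 TPM (SD over 3 libraries each; log2 fold change 0.73). The exception was THBS1, thrombospondin 1, which can activate latent TGF-beta: its log2 fold change was -1.24, from 48.6 ± 2.75 to 20.1 ± 1.85 TPM (SD, n = 3 each; adjusted p = 2.05e-08 by limma). ITGAV, an integrin subunit that takes part in activation, and FURIN, a protease that processes the precursor, were among those that were higher (0.39 and 0.32), and were named after their values were seen.

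Of 23 other ligand genes, 9 could be tested, 3 were higher and 2 were lower, and with no filter on low values 8 passed in place of 5. BMP4, a BMP ligand and the most abundant of the list, fell from 160.1 ± 8.39 to 95.6 ± 1.502 TPM (SD over 3 libraries each; log2 fold change -0.74, adjusted p = 5.64e-08 by limma). GDF15, a stress-induced member of the superfamily that signals through a separate receptor, rose from 22.0 ± 1.34 to 34.0 ± 3.25 TPM (SD over 3 libraries each), and AMH rose from 5.403 ± 0.607 to 8.03 ± 0.671 TPM (SD, n = 3 each). INHBB, the activin B subunit, was the other ligand that fell (log2 fold change -0.23) and BMP1, a protease listed with the ligands, the other that rose (0.37); both were named after their values were seen. The INHBB call was lost without vehicle replicate 2, without vehicle replicate 3 and under a replicate block.

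The list of BMP and ID target genes held 6 tested genes, 1 higher and 3 lower, with a median log2 fold change of -0.17. ID3, an inhibitor of basic helix-loop-helix factors, fell from 39.7 ± 2.25 to 23.7 ± 0.440 TPM (SD over 3 libraries each; log2 fold change -0.72, adjusted p = 7.59e-07 by limma), and ATOH8 fell by 0.73 on the log2 scale from 2.57 ± 0.342 TPM (SD, n = 3). ID1, named after its value was seen, fell by 0.17. HEY1 was higher by 0.45 at levels near 1 TPM, a call lost without vehicle replicate 2 (0.33), vehicle replicate 3 (0.43) or PDBAG1 replicate 3 (0.41). Among the secreted antagonists NOG, which traps BMPs, rose by a log2 value of 0.45 and FSTL3 by 0.44, whereas FST, which traps activins, fell by 0.25 on the log2 scale; 2 of 5 tested genes were higher and 1 lower.

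The other SMADs were not called. The SMAD9 groups did not overlap (1.48 ± 0.113 and 1.88 ± 0.261 TPM, SD, n = 3 each), as in 47.4% of all genes tested. Differences of SMAD1 and SMAD9 were at least as large in size as that of TGFBI (0.21), with larger SEs (0.11 each, against 0.05). SMAD1, SMAD2, SMAD4, SMAD5 and SMAD9 had log2 differences of -0.25, 0.09, -0.018, -0.013 and 0.21, none of which passed the test, and of the 9 tested genes in their list only EP300, a co-activator, was higher (0.30); the count of 1 became 2 without vehicle replicate 1, PDBAG1 replicate 1 or PDBAG1 replicate 3. SMAD1 passed the limit, as lower, after median-of-ratios scaling (-0.29), after quantile normalization (-0.35) and without PDBAG1 replicate 3 (-0.36). Of the 9 other receptor genes tested 2 were higher and the rest did not pass: ACVR1, with a log2 fold change of 0.45 (adjusted p = 0.00035 by limma), and BMPR2, with 0.30. The BMPR2 call was lost without vehicle replicate 2 (0.27) or 3 (0.26) and without PDBAG1 replicate 2 (0.29) or 3 (0.25), and with no filter on low values. The count of 2 receptor genes became 4 without vehicle replicate 1 or PDBAG1 replicate 1, and 1 without any other library. It became 3, with 2 higher and 1 lower, after median-of-ratios scaling, after quantile normalization and with length and GC trends removed.

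Of the 17 further genes in the list named for intracellular negative regulators, not all of which are negative, 6 were higher and 2 were lower. TGIF1, a SMAD co-repressor, rose from 37.8 ± 0.827 to 50.3 ± 1.61 TPM (SD over 3 libraries each; log2 fold change 0.40, adjusted p = 4.35e-05 by limma), and SMURF1, a ubiquitin ligase of the pathway, rose by a log2 value of 0.30. PMEPA1, a target and brake of the pathway, was higher by 0.33, a call lost after quantile normalization (0.22), with length and GC trends removed (0.21) and without vehicle replicate 3 (0.29) or PDBAG1 replicate 2 (0.30) or 3 (0.29). RNF111, whose protein degrades SMAD7 and SnoN and so promotes signalling, was also among the genes that were higher (0.28), and SMURF2 and NEDD4L were those that were lower (-0.17 and -0.19); these 3 were named after their values were seen. The count of 8 that passed became 5 without vehicle replicate 2, 4 without vehicle replicate 3 and 5 without PDBAG1 replicate 3. Both lower calls, SMURF2 and NEDD4L, were lost without vehicle replicate 1 and without PDBAG1 replicate 1.

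The 22 tested target genes of TGF-beta and SMAD3 gave 11 that were higher, 1 that was lower and 10 that did not pass, with a median log2 fold change of 0.22. The largest changes were those of ANGPTL4, from 3.29 ± 0.444 to 10.9 ± 0.672 TPM (SD over 3 libraries each; log2 fold change 1.48, adjusted p = 8.96e-08 by limma), of CDKN1A, the cell cycle inhibitor p21, with 1.14, and of JUNB, an AP-1 factor, with 1.07. All 3 are also known to respond to stimuli other than TGF-beta, and what lay behind their rise here was not tested. CCN2, among the best known targets, was the gene that was lower (log2 fold change -0.98), and the contractile genes TAGLN, ACTA2, TPM1 and MYL9 had values of -0.013, 0.15, -0.0038 and 0.12 that did not pass the test; these 5 were named after their values were seen. The known targets thus did not move as 1 group, as the spread of the target gene row in the plot of pathway lists shows.

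**Figure D4:**
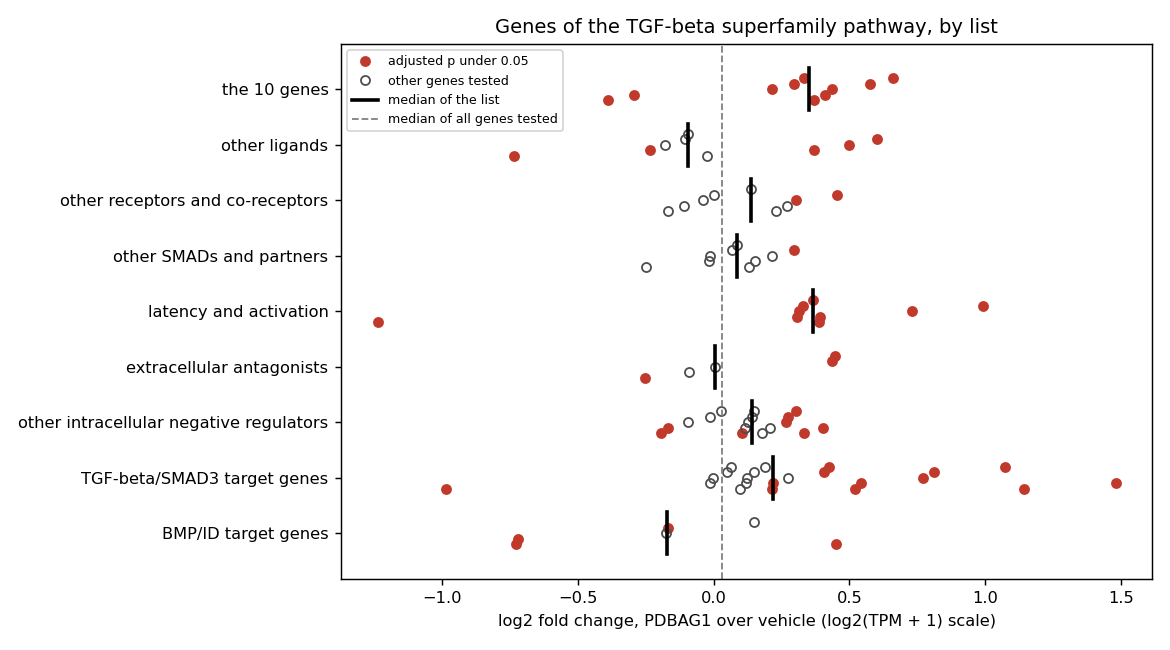
Log2 fold change of PDBAG1 over vehicle (horizontal axis) for the 10 genes and the 8 lists of other pathway genes; filled points passed an adjusted p of 0.05, open points did not, bars are list medians and the dashed line is the median of all genes tested, 0.03. The latency list has a median of 0.37 with THBS1 far to the left at -1.24, and the BMP and ID targets are centred on -0.17.

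In each library 12392 to 12611 genes reached 1 TPM. The line's markers VIM, CD44 and MSN were abundant in every library and rose with PDBAG1, by log2 values of 0.46, 0.59 and 0.45, while of 5 markers listed as absent from the line PGR and CDH1 stayed at or below 0.84 TPM. The other markers of that list were above 1 TPM in every library, ERBB3 at 5.51 to 7.78 TPM, GATA3 at 2.73 to 3.88 TPM and ESR1 at 1.96 to 3.38 TPM, and did not pass the test. Of 8 markers of other cell types 7 were in the files: COL3A1, VWF, ADIPOQ and PTPRC were at or below 1.41 TPM in every library, and the 3 that could be tested, CD68, PECAM1 and PDGFRB, were all higher with PDBAG1. The summed TPM of the 7 markers, nearly all of it CD68, was 258 to 271 with vehicle and 319 to 341 with PDBAG1, and 7.24 to 7.42 and 11.7 to 13.4 without CD68. The part of these markers in the changes of the 10 genes was not tested, and in bulk RNA a change in every cell and a change in some of the cells cannot be told apart.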

How the data were processed

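Each library has its own table of TPM. Per the labels' processing notes the authors used HISAT2 2.0.4, Bowtie2 2.2.5 and RSEM 1.2.12 with GRCh38.p12. The study's methods name GRCh38.p13 and FPKM, whereas the deposited values are TPM, summing to the same total in each library and rounded to 2 decimals. The annotation release is not given in the sources used here.

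Groups came from the sample labels. Genes that reached 1 TPM in at least 3 libraries were analysed as log2(TPM + 1) in R 4.3.3 with limma 3.58.1 (eBayes with a trend), p values being adjusted by Benjamini-Hochberg over all 12582 genes. The 1.5-fold limit is that of the study's methods. The steps were tested on simulated data. Ratios were compared by two-sided exact permutation tests (SciPy 1.17.1). Gene positions and canonical transcripts came from GENCODE v44 (GRCh38) by Ensembl identifier, found for 17212 of 17631 genes. Promoters are from RefSeq, taking for each gene the window nearest to the canonical start. The 10 genes and all lists were chosen with earlier results of these data known. Named were the 10 genes, 5 other SMADs, up to 3 genes with the largest passing changes per list, and for 2 genes the 3 most similar profiles; exceptions are marked. Alternatives were other filters, pseudocounts, scalings, fold limits, a replicate block and leaving out each library. Having 3 libraries per group limits the precision, and TPM gives no counting error.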

Additional observations from a re-analysis of the deposited data

How the results depend on the processing

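All 10 genes kept their direction under each filter, pseudocount, scaling, block and left-out library, and 124 of their values under alternatives kept their side of the p limit, while 6 did not, 5 of SMAD6 and 1 of INHBA. At a fold limit of 1.5, the passing genes became 420 of all tested, 1 of the 10 and 13 of the other pathway genes, and at a limit of 2 they became 80, 0 and 4, by construction of the limit. Without 1 library at a time the counts ranged from 3532 to 4649 for all genes, 9 to 10 for the 10 genes and 35 to 49 for the other pathway genes. The ratios ranged from -14.7 to -12.9 (TGFB2 share), 0.22 to 0.32 (log2 TGFBR1/TGFBR2), 1.93 to 2.51 (SMAD3 share) and 12.8 to 15.2 (SMAD7 share), and with a TPM of 1 added the SMAD7 share differed by 11.5 percentage points.

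A fit with a replicate block passed 3951 genes, 9 of the 10 (SMAD6 was lost) and 41 of the other pathway genes, and the ratio differences were unchanged at -13.8, 0.26, 2.28 and 14.0, with an exact paired permutation p of 0.25, the smallest 3 pairs can give. The deviations of libraries with the same number were correlated by only -0.21, 0.012 and -0.079. These values show no pairing by number, but with 3 libraries per group they cannot exclude it. Differences of genes that did not pass turned sign for SMAD2 with length and GC trends removed (-0.014), for SMAD4 without vehicle replicate 1 (0.015) or PDBAG1 replicate 1 (0.019), and for SMAD5 without vehicle replicate 1 (0.046) or PDBAG1 replicate 1 (0.066), with left-out ranges of -0.053 to 0.019 for SMAD4 and -0.079 to 0.066 for SMAD5; the cause was not tested. The trend removal lowered AMH to 0.33, EP300 to 0.17, SMURF1 to 0.19 and PMEPA1 to 0.21, and a pseudocount of 0.1 took ATOH8 to -1.09 and HEY1 to 0.76. Scaling moved the median of all genes by under 0.1. TPM allows no count test and sets no limit of detection.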
